A study of Homo sapiens with 6 samples.

Results

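The genes EGR1, EGR2, EGR3, IER2, IER3, IER5, NR4A1, NR4A2, CSRNP1 and CSRNP2 were followed in FaDu cells treated with BB608, a compound for which the sources give a code name alone, or with the vehicle DMSO. FaDu is an established line from a squamous carcinoma of the hypopharynx, so all values describe 1 line. Total RNA was sequenced after ribosomal RNA removal from 3 BB608 libraries and 3 DMSO libraries, described as biological replicates. Neither the dose nor the time of treatment is stated in those sources. Each member is every row of the authors' deposited table whose gene name matches, which gave 10 of 20660 gene names and 35 of 82428 coding sequences. The table holds 1 pooled FPKM value per group, that is, fragments per kilobase of sequence scaled to library size, so there is no value per library, no spread between replicates and no sequencing depth. The genes were proposed with the fold changes of this same comparison known. Their folds, and the authors' q beside them, are therefore a description and no support for a change of the group.

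Immediate-early genes are transcribed within a short time of a stimulus from factors already present in the cell, without new protein synthesis. In epithelial cells, growth factor receptors drive many of them through the ERK kinases, which act on ETS factors bound with SRF at serum response elements, and through CREB at cyclic AMP response elements. Their mRNAs are typically short-lived. EGR1, EGR2 and EGR3 encode zinc finger transcription factors, NR4A1 and NR4A2 encode orphan nuclear receptors that act without a known classical hormone ligand, and CSRNP1 and CSRNP2 encode nuclear proteins of a shared cysteine- and serine-rich family. IER2 encodes a small nuclear regulator, IER3 a stress-induced regulator of survival signalling, and IER5 a regulator of the heat shock factor HSF1.

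In BB608 the gene sum, the FPKM summed over a gene's coding sequences, was lower than in DMSO for 10 of the 10 genes. Among 10859 genes kept for such sums 42.4% were lower in BB608. The filter behind that number was passed by 9 of the members. EGR3, with no tested coding sequence and under 1 FPKM in both groups, did not pass. The authors' test was available for 9 of the genes and called a fall (q under 0.05) in CSRNP1 and IER3, in no other member, and it called no rise. Of all 11429 genes with a tested coding sequence 0.63% had a called fall. CSRNP1 was the extreme of the set, at 14.5% of its DMSO level, whereas IER5 kept 87.6%. In bulk RNA, fewer expressing cells and less RNA per cell cannot be told apart.

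**Figure D1:**
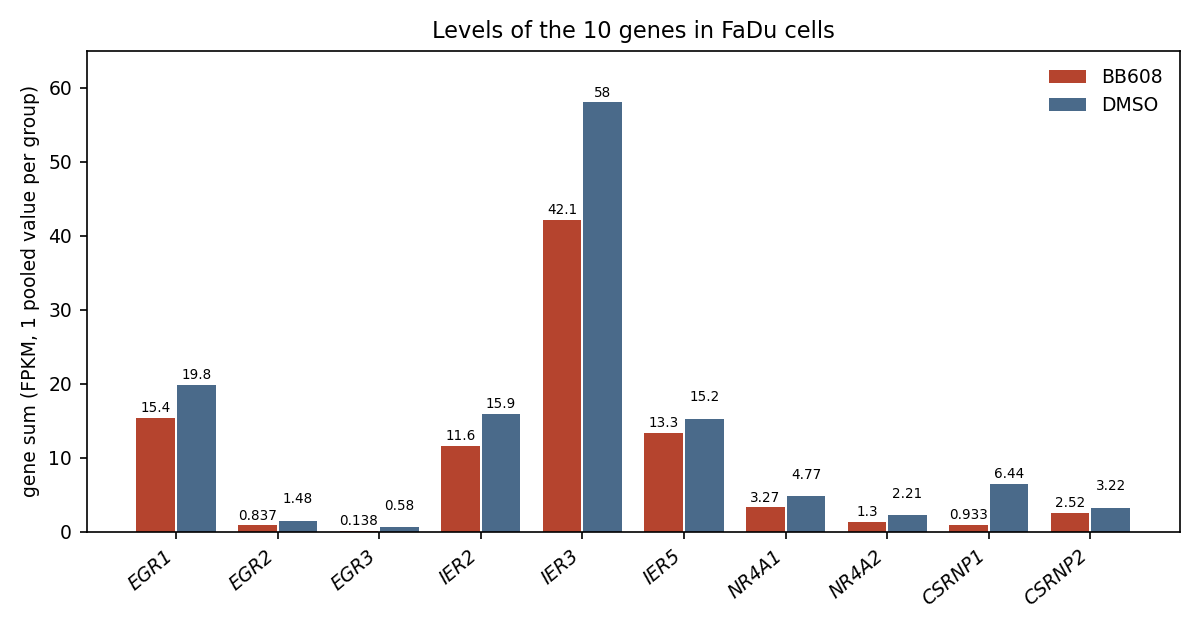
Gene sums in FPKM on a linear axis from 0, with 1 pooled bar per group and gene, BB608 beside DMSO. IER3 is the tallest pair at 42.1 FPKM in BB608 and 58.0 FPKM in DMSO, and CSRNP1 shows the widest gap relative to its level, at 0.933 FPKM in BB608 and 6.44 FPKM in DMSO.

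The cells carried the markers of their label in both groups. The 8 squamous epithelial markers summed to 3758 FPKM in BB608 and 3606 FPKM in DMSO, and none of the 8 was called. They ranged from KRT5, at 2472 FPKM in BB608 and 2334 FPKM in DMSO, to DSG3, at 7.56 and 8.44 FPKM. The 6 fibroblast markers summed to 0.976 FPKM in BB608 and 0.980 FPKM in DMSO, none of them was tested, and 3 were at about 0 in both groups. Of the blood and endothelial markers, 6 were found, summing to 6.43 FPKM in BB608 and 6.11 FPKM in DMSO. Nearly all of that came from CDH5, at 4.09 FPKM in BB608 and 3.82 FPKM in DMSO, and CD14, at 2.24 and 2.23 FPKM. These were the 2 that were tested, and neither was called. Of 34474 coding sequences tested by the authors 122 were called, a share of 0.354%, with 49 rises and with 73 falls, which are 0.212%.

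The EGR factors spanned the widest range of levels. EGR1, the family member most widely induced by growth factors and stress, has 1 coding sequence, at 15.4 FPKM in BB608 and 19.8 FPKM in DMSO in the authors' deposited table. Its log2 fold of BB608 over DMSO was -0.37 with an implied SE of 0.10, an error derived from the authors' statistic and p as no replicate values were at hand. The 95% interval from that error ran from -0.56 to -0.17. The authors' p was 0.0002 and their q 0.0539, just past the threshold that IER3 met at a q of 0.0424. The place of EGR1 relative to the threshold depended on how many coding sequences entered the adjustment. When sequences averaging under 1 FPKM over the groups were left out of the adjustment, its q was 0.0433.

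EGR2, known for its part in hindbrain patterning and myelination, was much lower, at 0.837 FPKM in BB608 and 1.35 FPKM in DMSO for its tested coding sequence in the authors' deposited table. The log2 fold was -0.69 (implied SE 0.19), and that table gives p 0.00035 and q 0.0868. A second coding sequence of EGR2, not tested, stood at 4.79e-05 FPKM in BB608 and 0.138 FPKM in DMSO, and with it the gene sum had a log2 fold of -0.83. An added 1 FPKM in both groups made the fold of the tested sequence -0.35, since such an offset is large beside these levels. EGR3, a factor studied mostly in lymphocytes and muscle spindles, had no tested coding sequence among its 3. Its gene sum was 0.138 FPKM in BB608 and 0.580 FPKM in DMSO, the lowest of the 10 genes in both groups. The log2 fold of -2.08 that these sums give came mostly from 1 sequence, at 0.000729 FPKM in BB608 and 0.383 FPKM in DMSO in the authors' deposited table. The other 2 EGR3 sequences, also lower in BB608, were at 0.112 and 0.0245 FPKM in BB608, against 0.167 and 0.0299 FPKM in DMSO. With a pseudocount of 1 FPKM the EGR3 sum had -0.47.

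The sequence before the transcription start is shown for the members in which binding motifs of the known immediate-early regulators were found. RefSeq windows of build GRCh38.p14 were available for 7 of the members, all but EGR3, IER3 and NR4A2, with 11 annotated starts, and the 250 bases before each start were searched on both strands. The motifs were the core TGACG of the cyclic AMP response element (CRE), the full CRE TGACGTCA, which contains that core, the AP-1 site TGANTCA, the CArG box at the core of the serum response element, the GC-rich EGR site GCGNGGGCG and the TATA box TATAAA. Below, each sequence runs 5′ to 3′ on the strand of its gene and capitals mark the matches. The EGR1 window is chr5:138465229-138465478 on the plus strand, and the EGR2 window is that of its most downstream start, chr10:62816367-62816616 on the minus strand.
EGR1: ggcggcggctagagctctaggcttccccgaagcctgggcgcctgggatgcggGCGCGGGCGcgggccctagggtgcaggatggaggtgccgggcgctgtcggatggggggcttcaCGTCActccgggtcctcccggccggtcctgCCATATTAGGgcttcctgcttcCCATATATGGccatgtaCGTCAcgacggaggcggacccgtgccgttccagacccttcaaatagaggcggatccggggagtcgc
EGR2: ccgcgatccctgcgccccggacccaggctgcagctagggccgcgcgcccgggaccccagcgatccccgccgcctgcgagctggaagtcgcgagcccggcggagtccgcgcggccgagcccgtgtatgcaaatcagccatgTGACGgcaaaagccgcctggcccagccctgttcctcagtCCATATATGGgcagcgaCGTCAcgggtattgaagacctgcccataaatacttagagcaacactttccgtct
EGR1 held 2 CArG boxes, starting 105 and 83 bases before the start, with a CRE core on either side of the pair and an EGR site 198 bases before the start. EGR2 held 1 CArG box, starting 71 bases before its start, between 2 CRE cores. A CArG box was present in 1.16% of all 35116 windows of this length, a CRE core in 21.2% and an EGR site in 8.41%.

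CSRNP1 and IER2 carried only CRE cores in their windows. The CSRNP1 window belongs to its downstream start, chr3:39153592-39153841 on the minus strand, and that of IER2 is chr19:13150161-13150410 on the plus strand.
CSRNP1: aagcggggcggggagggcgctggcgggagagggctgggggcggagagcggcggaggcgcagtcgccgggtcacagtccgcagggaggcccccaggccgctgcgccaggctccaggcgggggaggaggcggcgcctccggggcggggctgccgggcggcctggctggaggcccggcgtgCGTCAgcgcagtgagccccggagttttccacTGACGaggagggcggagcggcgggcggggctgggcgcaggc
IER2: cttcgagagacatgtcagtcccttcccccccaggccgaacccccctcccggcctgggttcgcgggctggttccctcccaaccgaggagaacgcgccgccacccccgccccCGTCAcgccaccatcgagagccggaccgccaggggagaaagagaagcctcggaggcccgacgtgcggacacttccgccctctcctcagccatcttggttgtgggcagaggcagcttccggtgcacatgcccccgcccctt
CSRNP1 held 2 cores, on opposite strands and starting 72 and 41 bases before the start, in a window of 80.4% G and C, against a median of 58% over all windows. IER2 held 1 core 140 bases before the start. In the windows of IER5, NR4A1 and CSRNP2, and in the other windows of EGR2 and CSRNP1, no match was found. No member window held a full CRE, an AP-1 site or a TATA box by these letters, which were present in 1.65%, 6.57% and 10.7% of all windows. A match describes the letters only, and a window without one says nothing of the factor.

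**Figure D2:**
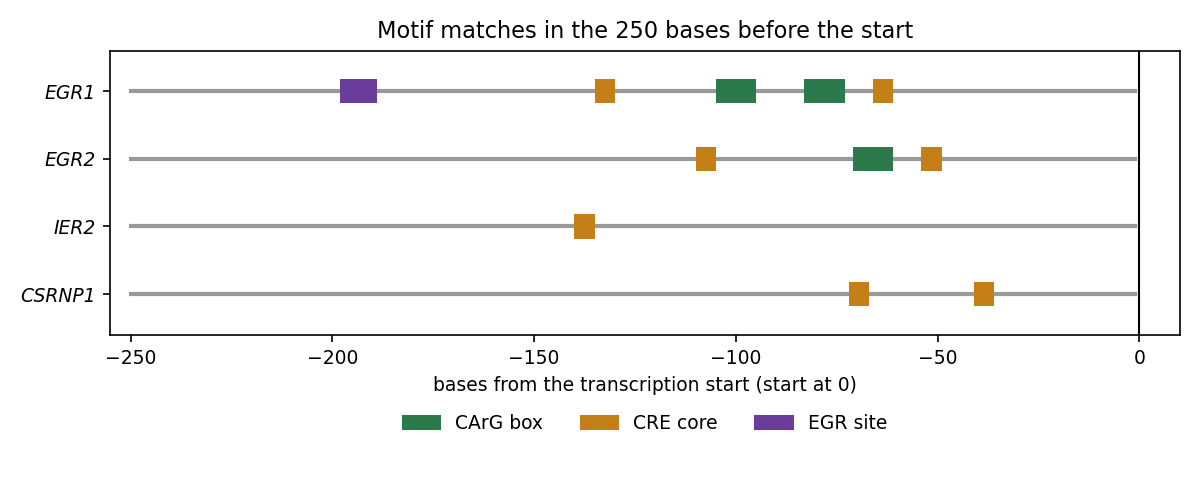
Motif matches in the 250 bases before the transcription start of EGR1, EGR2, IER2 and CSRNP1, with distance in bases on the x axis and the start at 0. Boxes mark CArG boxes, CRE cores and EGR sites to scale, and the CArG boxes sit in EGR1 and EGR2 only among these 4 windows.

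The IER genes were, with EGR1, the 4 most abundant of the set on the FPKM scale, which is per length. IER3, also called IEX-1, was highest of the 10 genes in both groups, with gene sums of 42.1 FPKM in BB608 and 58.0 FPKM in DMSO. Its main coding sequence fell to 39.5 FPKM in BB608, against 53.9 FPKM in DMSO, a log2 fold of -0.45 (p 0.00015, q 0.0424, implied SE 0.11) in the authors' deposited table. The second IER3 coding sequence was at 2.60 FPKM in BB608 and 4.11 FPKM in DMSO in the same table, a log2 fold of -0.66 with an implied SE of 0.68 that was not called. The main sequence made up 93.8% of the gene sum in BB608 and 92.9% in DMSO, so its share of the summed FPKM was much the same. No error was available for that share.

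IER2, with 1 coding sequence, stood at 11.6 FPKM in BB608 and 15.9 FPKM in DMSO in the authors' deposited table. Its log2 fold of -0.45 was close to that of IER3, but its implied SE of 0.15 was wider, and the p of 0.003 became a q of 0.435. IER5 was at 13.3 FPKM in BB608 and 15.2 FPKM in DMSO in the authors' deposited table, for a log2 fold of -0.19 (p 0.0753, q 0.997, implied SE 0.11). The 95% interval of IER5 ran from -0.41 to 0.02. It overlapped those of EGR1, from -0.56 to -0.17, and IER2, from -0.75 to -0.16. The interval of the main IER3 sequence, from -0.67 to -0.23, overlapped it too. Whether the folds differ between these genes was not tested. EGR1, IER2 and IER5 followed IER3 in level, and IER2 and IER5 changed places between the groups. Which of these neighbours differ cannot be said, because no spread of the levels was available.

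**Figure D3:**
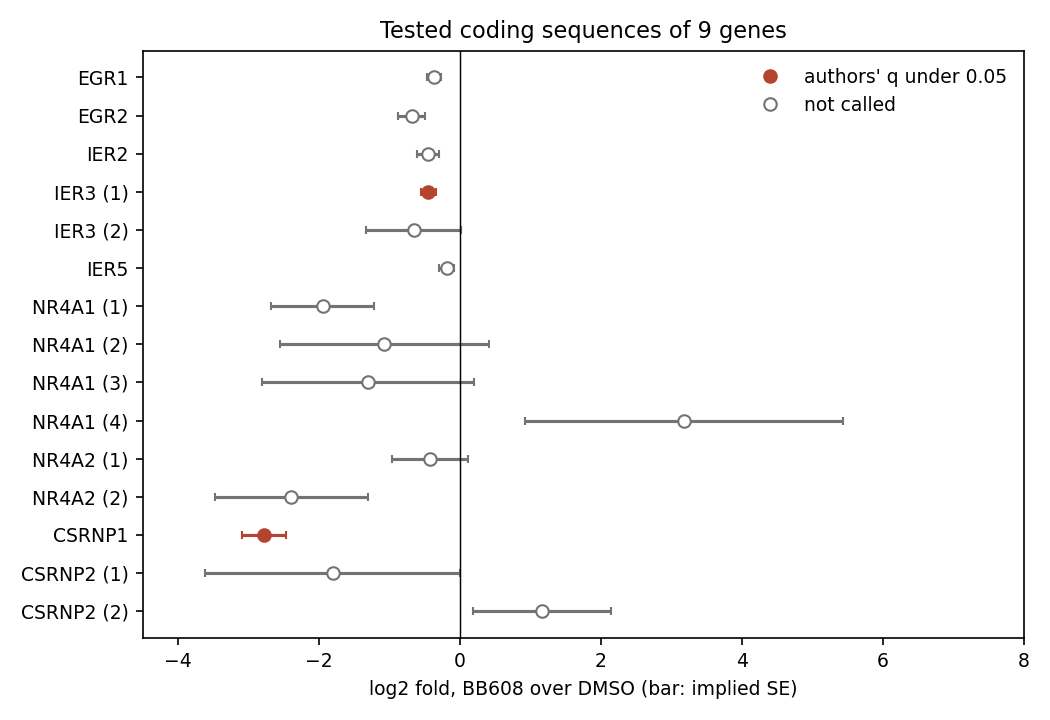
Log2 folds of BB608 over DMSO for the 15 tested coding sequences of 9 genes, with bars of 1 implied SE and numbers in brackets where a gene has several. Filled points mark the 2 called falls, in IER3 and CSRNP1, and the bars of single-sequence genes are shorter than those of NR4A1, NR4A2 and CSRNP2.

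The NR4A receptors were low and their FPKM was divided among many coding sequences. NR4A1, also called Nur77, had a gene sum of 3.27 FPKM in BB608 and 4.77 FPKM in DMSO, a log2 fold of -0.54 over 10 coding sequences. The leading sequence in DMSO stood at 0.625 FPKM in BB608 and 2.41 FPKM in DMSO in the authors' deposited table, for a log2 fold of -1.95 (p 0.0145, q 0.997, implied SE 0.73). A sequence that was higher in BB608 stood at 1.15 FPKM in BB608 and 0.126 FPKM in DMSO in that table, a log2 fold of 3.18 with an implied SE of 2.26. That sequence made up 35.0% of the gene sum in BB608 and 2.65% in DMSO. The remaining tested sequences of NR4A1 had log2 folds of -1.07 and -1.30 in the authors' deposited table, with implied SEs of 1.48 and 1.51. The gene sum therefore differed far less than its leading sequence, and no sequence was called.

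NR4A2, or Nurr1, had a gene sum of 1.30 FPKM in BB608 and 2.21 FPKM in DMSO, a log2 fold of -0.76 over 9 coding sequences, of which 2 were tested. The more abundant one was at 0.667 FPKM in BB608 and 0.901 FPKM in DMSO in the authors' deposited table, for a log2 fold of -0.43 (q 0.997, implied SE 0.54). The other was at 0.129 FPKM in BB608 and 0.676 FPKM in DMSO in that table, a log2 fold of -2.39 (p 0.0996, q 0.997, implied SE 1.09). For that sequence the implied SE is too small for the deposited p, since the interval it gives, from -4.53 to -0.26, leaves out 0. As 1 median ratio serves all rows, the implied SE is also too small for some NR4A1 and CSRNP2 sequences. Among them are the NR4A1 sequence with a fold of 3.18 and the CSRNP2 sequence with -1.81. With errors of this size or more a missed threshold does not show that the receptors stayed level.

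CSRNP1, known as AXUD1 from its induction by AXIN1, fell to 0.933 FPKM in BB608, against 6.44 FPKM in DMSO, in the authors' deposited table. Its single coding sequence had a log2 fold of -2.79 (q 0.0154, implied SE 0.31), at the smallest p that occurs in the table, 5e-05. That q was shared by 112 of the 122 called coding sequences, so it does not set CSRNP1 apart. The 95% interval from the implied SE ran from -3.39 to -2.18. Sequences at the smallest p did not enter the ratio behind the implied SE, so this error and interval are extrapolated. Adding 1 FPKM to both groups made the log2 fold -1.94. Of the 10859 kept genes 11 had a lower fold of the gene sum. By level, CSRNP1 was the fifth of the 10 genes in DMSO and the eighth in BB608, where it came close to EGR2.

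Its paralogue CSRNP2, which is not usually counted among the immediate-early genes, had a gene sum of 2.52 FPKM in BB608 and 3.22 FPKM in DMSO, a log2 fold of -0.35. Its 2 tested coding sequences differed in opposite directions. One stood at 0.717 FPKM in BB608 and 2.51 FPKM in DMSO, and the other at 1.59 FPKM in BB608 and 0.712 FPKM in DMSO, in the authors' deposited table. Their log2 folds of -1.81 and 1.16 had implied SEs of 1.80 and 0.98, and neither was called. The first sequence held 28.4% of the gene sum in BB608 and 77.9% in DMSO. Whether the folds of CSRNP1 and CSRNP2 differ was not tested.

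**Figure D4:**
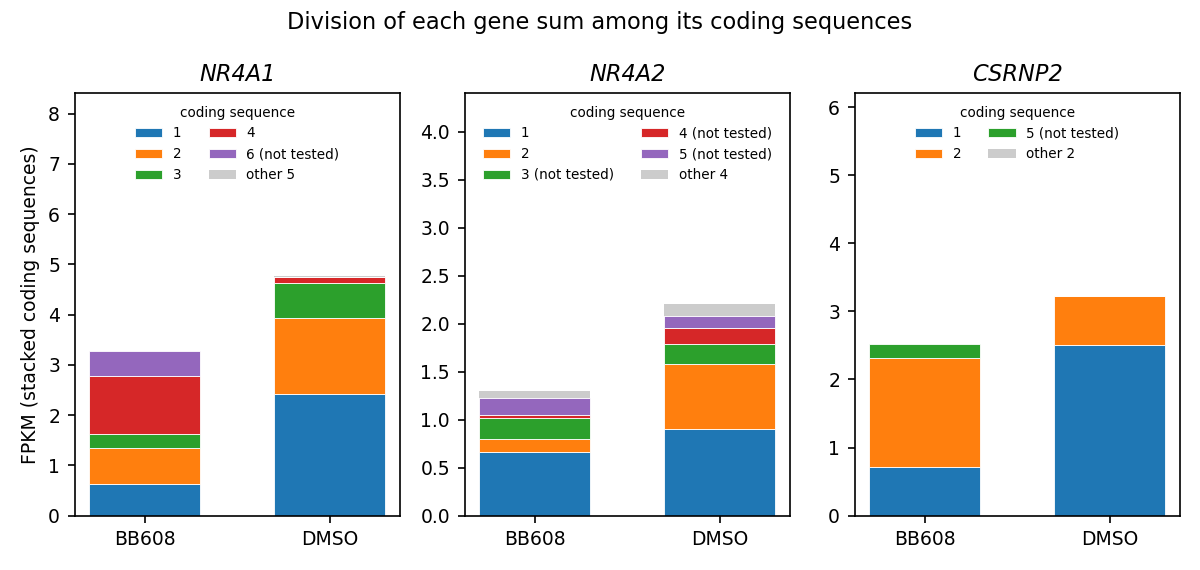
Stacked FPKM of the coding sequences of NR4A1, NR4A2 and CSRNP2, BB608 beside DMSO, with 1 pooled value per group. In NR4A1 and CSRNP2 the sequence that leads in DMSO is smaller in BB608 while another is larger, so the sums of 3.27 and 2.52 FPKM in BB608 against 4.77 and 3.22 FPKM in DMSO differ less than the parts.

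Of 35 member coding sequences 15 were tested, 13 of them lower and 2 higher in BB608, and the 2 higher ones were the NR4A1 and CSRNP2 sequences given above. Among genes with 1 tested coding sequence 1.27% had a called fall, and among genes with several 0.343%. In the authors' deposited table an unadjusted p under 0.05 stands for 6 of the 9 tested genes, namely EGR1, EGR2, IER2, IER3, NR4A1 and CSRNP1, against 9.49% of the genes with a tested coding sequence. The members were chosen on this contrast, so these shares are given side by side only.

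The loci the table assigns to some members are longer than the genes. In hg19 coordinates of the authors' deposited table EGR1 lies on chromosome 5 from 137801178 to 137807099, IER3 on chromosome 6 from 30710975 to 30712331 and CSRNP1 on chromosome 3 from 39183337 to 39196053. The EGR2 locus spans 108 kb in that table and the EGR3 locus 397 kb, whereas their main transcripts span 4.36 and 5.64 kb in GENCODE release 29 (GRCh38).

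The EGR and IER genes have few exons, and all of the members are below the median gene in exons and in span. In GENCODE release 29, where 9960 kept genes were matched by symbol, EGR1, EGR2, EGR3 and IER3 have 2 exons in their main transcript and IER2 and IER5 have 1. Of the matched kept genes 6.53% have at most 2 exons. CSRNP1 and CSRNP2 have 5 exons and NR4A1 and NR4A2 have 8, against a median of 9 over the matched genes. The main transcripts of NR4A2 and CSRNP1 span 8.29 and 11.7 kb, and those of NR4A1 and CSRNP2 21.8 and 22.3 kb. The median span of the members was 5.002 kb, against 27.96 kb over the matched genes.

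The pentamer ATTTA, the core of the AU-rich elements that mark many unstable mRNAs, was counted in the 3′ untranslated region. IER5 held 10 copies, CSRNP2 7, IER3 6, CSRNP1 5 and NR4A2 4, while NR4A1 and EGR3 held 3 each, EGR2 2, EGR1 1 and IER2 none. At least 3 copies were found in 7 of the 10 members and in 45.3% of the matched genes. IER5, with the most copies, had the smallest log2 difference of the gene sums, and CSRNP1, with 5, the largest. Whether the counts go with the folds was not tested.

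Genes related to the members gave few values that could be compared. IER5L, the paralogue of IER5, was at 2.34 FPKM in BB608 and 1.71 FPKM in DMSO in the authors' deposited table, for a log2 fold of 0.45 (p 0.0064, q 0.719, implied SE 0.16), opposite in sign to IER5. EGR4 had gene sums of 0.112 FPKM in BB608 and 0.183 FPKM in DMSO, and NR4A3 of 0.427 FPKM in BB608 and 0.543 FPKM in DMSO, with no tested sequence in either gene. CSRNP3 had gene sums of 1.29 FPKM in BB608 and 0.662 FPKM in DMSO, and its 1 tested sequence had an implied SE of 3.99.

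The genes that act on or with the members showed no called change, where 1.06% of all genes with a tested coding sequence had a call in either direction and 9.49% an unadjusted p under 0.05. Counts of 0 calls and of 1 or 2 low p-values in lists of this size are thus near the share over all genes. Of the 14 SRF, ETS and CREB activators 14 were tested and none was called, with 2 of them under an unadjusted p of 0.05 and a median log2 fold of the gene sums of 0.16, against 0.03 over all kept genes. SRF itself had 5.05 FPKM in BB608 and 6.84 FPKM in DMSO. The 16 ERK and p38 cascade kinases were all tested with no Cuffdiff call, 2 of them under an unadjusted p of 0.05, with a median of 0.05. Among corepressors, partners and effectors 12 of 13 were tested with no Cuffdiff call, 1 of them under an unadjusted p of 0.05, with a median of 0.08. They include NAB1, which represses EGR factors, at 37.6 FPKM in BB608 and 43.8 FPKM in DMSO, and the related NAB2 at 8.75 FPKM in BB608 and 8.34 FPKM in DMSO. HSF1, on which IER5 acts, was at 24.4 FPKM in BB608 and 22.7 FPKM in DMSO. SRF, NAB1, NAB2 and HSF1 are named here for their roles, outside the naming rule and with their values known. These are mRNA levels and do not measure the activity of kinases or factors.

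A list of 34 other immediate-early genes, all of them tested, gives the members a context. In it 16 genes had a called fall and none a called rise, against 0.63% falls over all tested genes, and the median log2 fold of gene sums was -0.64 over its 33 kept genes. Over the 9 kept members it was -0.46, and with EGR3, which was not kept, -0.50. The first 8 by the fold of their called coding sequence, 1 per gene, were ATF3, SOCS3, GADD45B, HBEGF, DUSP1, DUSP2, FOS and TRIB1. Those sequence folds ran from -4.09 to -1.19 in the authors' deposited table. The log2 folds of the gene sums were smaller in size for ATF3 (-2.13), SOCS3 (-1.24), GADD45B (-0.79), FOS (-0.61) and TRIB1. For HBEGF, DUSP1 and DUSP2, with 1 tested sequence each, the gene sum gave the same fold. The list was drawn up with earlier results of these data known, and the difference between it and the members was not tested.

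**Figure D5:**
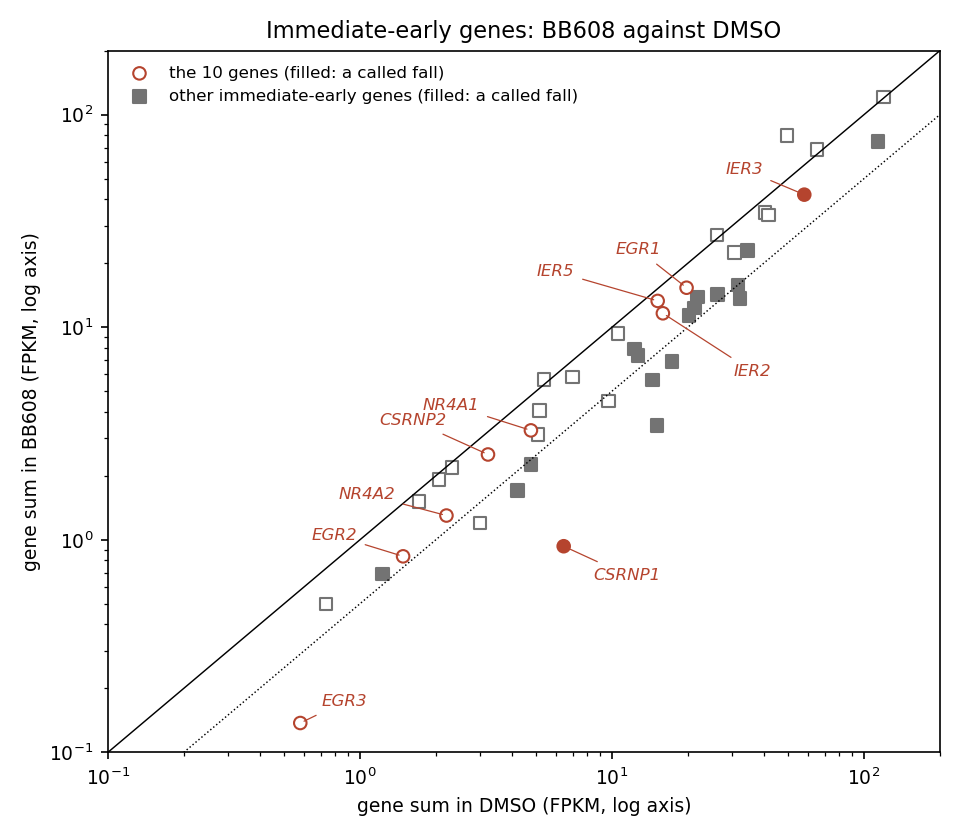
Gene sums in BB608 against DMSO on log axes for the 10 genes (circles) and 34 other immediate-early genes (squares), filled where a fall was called; the solid line marks equal levels and the dotted line 50% of the DMSO level. The 10 circles lie below the solid line, and CSRNP1 at 0.933 FPKM in BB608 and 6.44 FPKM in DMSO lies far below the dotted line, as does the untested EGR3.

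Genes whose pair of levels was nearest to that of a member were taken by distance on the log2 scale over the 2 pooled values. For EGR1 they were C11orf54, ACTR6 and ANO10, for IER2 AC073657.1, LOXL2 and TASP1, and for IER3 EMP1, RRM2B and VEGFA, at distances of 0.014 to 0.079. VEGFA, for example, had gene sums of 40.7 FPKM in BB608 and 55.5 FPKM in DMSO. None of these 9 genes had a called change, which is near the share of 1.06% over all genes with a tested coding sequence. CSRNP1 had no near neighbour, as the closest, UBE2E3, lay 0.64 away at 1.45 FPKM in BB608 and 6.43 FPKM in DMSO. UBE2E3 had no called change either. Likeness over 2 values describes level and fold only.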

How the data were processed

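The named build is hg19 and the named tools are TopHat2 2.0.11, Cufflinks 2.2.1 and Cuffdiff, as listed without roles in the submitters' processing notes; no source used here states the gene annotation. The deposited table holds FPKM values, which the authors pooled per group, with their log2 fold (treated as a score, since it takes extreme values where an FPKM is close to 0), test statistic (a score), p-value and q-value per coding sequence. In 2153 cells the deposited fold is a spreadsheet error, and these folds were not used.

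The planned design foresaw limma only for values per library, so no test was run here and the authors' q under 0.05 is the call. The implied SE is the log2 fold divided by the statistic and by 1.74, the median ratio of the normal quantile of p to the absolute statistic over 34310 coding sequences (quartiles 1.65 and 1.79). Gene sums were kept where a coding sequence was tested, none failed and the name was single. Both groups also had to have a positive value, and the higher group at least 1 FPKM. Named genes were the members, called members of each list (at most 8, by size of fold), related family genes and 3 nearest genes for 4 members. The members and lists were chosen with earlier results of these data known. The scripts were in Python 3.11.15 with pandas 2.3.3. Only the ratio behind the implied SE and the q adjustment were run on simulated data, which held a constant ratio for all rows. Alternatives covered gene summary, pseudocount, scaling, filters and the size of fold. Depth is unknown, and no interval for counts was possible.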

Additional observations from a re-analysis of the deposited data

Results flagged for a closer look

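Coding sequences that the authors did not test carry signal in BB608 and almost none in DMSO for 2 members. An untested NR4A1 coding sequence stood at 0.499 FPKM in BB608 and 0.000263 FPKM in DMSO in the authors' deposited table. An untested CSRNP2 coding sequence stood at 0.211 FPKM in BB608 and 1.62e-74 FPKM, in effect 0, in DMSO in that table. These sequences made up 15.2% and 8.35% of the BB608 gene sums of NR4A1 and CSRNP2. No fold is given for either, and there is no error for values that rest on pooled libraries.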

How the results depend on the processing

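No paired analysis was possible because each group has only a pooled value. Leaving out a replicate was impossible for that reason too. Normal p-values from the statistic, and the adjustment over genes with 1 tested coding sequence, were chosen after seeing the data.

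The 122 calls became 40, the 73 falls 33 and the 49 rises 7, with a bound of 1 log2; with a mean of at least 5 FPKM, where fewer sequences enter, 83 were called, 38 as falls and 45 as rises, so that falls no longer outnumbered rises as in the 73 falls and 49 rises without that filter. Of the members CSRNP1 alone was left with the bound of 1 log2, a count of 1. With a mean of at least 1 FPKM the members called were CSRNP1, EGR1 (q 0.0433) and IER3. With at least 5 FPKM they were EGR1 (q 0.0301) and IER3, since CSRNP1 lies below that mean. Among genes with 1 tested coding sequence they were CSRNP1, EGR1 (q 0.00836) and EGR2 (q 0.0134), where IER3 does not enter. Over all coding sequences 121 of 26180, 83 of 12043 and 122 of 3551 were called in these settings, in that order, against 122 of 34474 as deposited. The share called over all is thus far larger among genes with 1 tested coding sequence. The 16 other immediate-early genes called became 10 with the bound of 1 log2. Among genes with 1 tested coding sequence 9 were called, in the setting with 122 of 3551 called over all coding sequences. The rest of the 16, such as FOS and ATF3, have several tested sequences and do not enter there.

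Of 49 settings over member folds 42 moved by less than 1 implied SE (0.1 log2 for EGR3, which has none) and 7 moved further. None turned round a called fold, which only CSRNP1 and IER3 had. Most settings could not have done so. A pseudocount keeps the sign of a fold, and scaling by a positive median cannot turn a negative one. The gene sum of CSRNP1 is its single coding sequence, so only quantile normalization could have turned its fold. For IER3 only quantile normalization and the gene sum could. A wide implied SE makes the bound of 1 implied SE lenient: CSRNP2 went from -1.81 to -0.35 by gene sum and still counts among the 42. The median log2 ratio over tested coding sequences was 0.04, less than any of these bounds, so scaling by it could move no fold past them. All 10 members stayed lower in BB608 by gene sum, after scaling by that median, after quantile normalization and by the most abundant coding sequence. Part of this is fixed in advance, because a gene with 1 coding sequence has the same value in each summary. Scaling subtracts a positive median from folds that are all negative, so the count after it could not differ.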

Other observations

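Some of the other immediate-early genes had values as high in BB608 as in DMSO. FOSL1 had gene sums of 120.9 FPKM in BB608 and 119.5 FPKM in DMSO, JUNB 27.2 FPKM in BB608 and 26.2 FPKM in DMSO, and MYC 68.5 FPKM in BB608 and 65.3 FPKM in DMSO. NFKBIA, the NF-kB inhibitor induced by that factor, had a gene sum of 79.7 FPKM in BB608 and 49.6 FPKM in DMSO, with no coding sequence called. ELK4, a partner of SRF, had gene sums of 1.13 FPKM in BB608 and 0.406 FPKM in DMSO, a lowest p of 0.0169 and no call. These genes were picked after their values were seen.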
